A study of Mus musculus with 6 samples.

Results

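The 9 genes Kit, Ly6a, Slamf1, Procr, Esam, Thy1, Cd48, Cd34 and Flt3 encode surface proteins by which mouse blood stem and progenitor cells are sorted. They were found through the RefSeq accession of each array probe, which gave 12 probes for the 9 genes out of 20284 genes named on the array, and each gene is read from its brightest probe. All samples were sorted for c-Kit and Sca-1 and against lineage antigens, a gate named KSL, from mice on a C57BL6 background, and the labels call them HSCs (hematopoietic stem cells). Bone marrow KO cells carried CreERT with floxed Tif1b alleles (Tif1bf/f, 2 arrays), and bone marrow WT cells carried CreERT with wild-type alleles (Tif1bw/w, 2 arrays), both from adult marrow. Fetal liver KO cells carried Tie2-Cre with Tif1bf/f (1 array), and fetal liver WT cells carried Tie2-Cre with Tif1bw/w (1 array). All groups therefore carry a Cre. CreERT is a Cre that acts after an estrogen receptor ligand is given, and Tie2-Cre is active in endothelial and blood cells; the ligand schedule, the ages and the number of animals behind an array are not given in the sources used here. For bone marrow replicate 2 the genotype is written Tif2b, which was taken to mean Tif1b. The descriptions of bone marrow replicate 1 name HP1 knockdown c-Kit+ cells, against the sample's other labels. Separate animals are nowhere stated, so p-values measure only the spread between these arrays, which may be technical.

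The floxed gene, Trim28 in current naming, makes a corepressor protein through which chromatin is silenced. In adult mouse marrow the KSL gate holds the long-term stem cells together with multipotent progenitors. By convention, stem cells in the gate carry the SLAM receptor encoded by Slamf1, the endothelial protein C receptor (Procr) and the adhesion molecule Esam at high level and little Cd48, Cd34 or Flt3, and progenitors gain Cd48 and then Flt3 as they lose self-renewal. In the fetal liver, stem cells differ from adult ones in several of these markers.

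The promoters of Slamf1, Flt3, Kit and Cd48 are shown because Slamf1 and Flt3 had opposite differences in bone marrow and because Kit and Cd48 are the members whose promoter held a match to a searched motif. Each is the 300 bases from 250 before to 50 after the RefSeq start, on GRCm38.p6, 5′ to 3′, with motif matches in capitals.
Slamf1 promoter, chr1:171766882-171767181, plus strand: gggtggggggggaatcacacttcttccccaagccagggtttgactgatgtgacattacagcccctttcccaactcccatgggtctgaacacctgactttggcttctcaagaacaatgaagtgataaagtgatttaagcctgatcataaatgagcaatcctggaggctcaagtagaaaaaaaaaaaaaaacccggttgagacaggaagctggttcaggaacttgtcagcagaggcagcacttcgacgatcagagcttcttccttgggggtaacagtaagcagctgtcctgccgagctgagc
Flt3 promoter, chr5:147400440-147400739, minus strand: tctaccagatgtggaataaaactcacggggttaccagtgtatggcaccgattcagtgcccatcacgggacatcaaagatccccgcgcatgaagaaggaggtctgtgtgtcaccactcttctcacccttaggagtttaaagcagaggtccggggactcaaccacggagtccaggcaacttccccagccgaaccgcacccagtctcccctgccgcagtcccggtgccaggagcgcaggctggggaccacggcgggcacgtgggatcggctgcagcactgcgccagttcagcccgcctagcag
Kit promoter, chr5:75574737-75575036, plus strand: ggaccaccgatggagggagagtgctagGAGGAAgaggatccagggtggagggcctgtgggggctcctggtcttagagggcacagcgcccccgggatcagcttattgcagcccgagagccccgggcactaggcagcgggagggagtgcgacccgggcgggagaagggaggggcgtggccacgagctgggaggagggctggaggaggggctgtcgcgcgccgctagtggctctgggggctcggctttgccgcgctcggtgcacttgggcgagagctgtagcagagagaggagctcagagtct
Cd48 promoter, chr1:171681742-171682041, plus strand: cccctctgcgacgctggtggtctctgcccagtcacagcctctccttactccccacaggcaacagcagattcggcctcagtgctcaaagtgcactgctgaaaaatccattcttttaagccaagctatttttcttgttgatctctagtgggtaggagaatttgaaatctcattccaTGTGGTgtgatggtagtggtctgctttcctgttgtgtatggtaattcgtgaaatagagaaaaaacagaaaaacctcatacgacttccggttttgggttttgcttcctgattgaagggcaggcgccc

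A promoter was at hand for 6 of the 9 members: those 4, Procr and Cd34. Both strands were searched for the letters AGATAA, read by factors of the GATA family. They were also searched for TGTGGT, read by RUNX factors. The last motif was GAGGAA, read by PU.1 and its Ets relatives. No matches overlapped. GAGGAA was found once in the Kit promoter and TGTGGT once in that of Cd48, and no other match was found in the 6 members. Among all 32851 promoters of the same length, 11.2% held AGATAA, 16.8% TGTGGT and 28.3% GAGGAA. Slamf1 and Cd48 both lie on chromosome 1.

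Probes well above background numbered 24383 to 31419 per array. The 75th percentile of signal was lower on the fetal liver arrays and bone marrow replicate 1 (210.6 to 324.5) than on bone marrow replicate 2 (737 and 743). Levels below are log2 signals over that percentile, so 0 is the array's 75th percentile, and a difference of 1 is 2-fold. Levels are not set against each other between genes, because probes differ in brightness. The scanner file and the authors' deposited value table held the same values for 5 arrays, with 100% of probes that had a ratio of at least 0.1 within 1% of each other. For bone marrow WT replicate 1 only 1.41% did. That array correlated with WT replicate 2 at r = 0.889 in the scanner file and r = 0.983 in the value table, over the genes tested. The members' levels and counts of calls that use it are therefore given from both sources, and other values name the source they come from.

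Trim28, the targeted gene, had levels of 1.28 and 0.75 on the bone marrow KO arrays, against 5.55 on WT replicate 2 and, for WT replicate 1, 5.18 in the value table and 2.45 in the scanner file. In fetal liver it had 1.68 in KO and 5.97 in WT. KO arrays were lower than every WT array in both sources, but the scanner file labelled WT replicate 1 lay nearer to the KO arrays than to WT replicate 2. Its difference in the value table was -4.34 ± 0.31 (SE, adjusted p = 0.0149).

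Of the genes that define the gate, Kit, the stem cell factor receptor, had levels of 4.31 and 4.17 on the bone marrow KO arrays, against 4.35 on WT replicate 2 and 4.16 for WT replicate 1 in the value table, with 4.30 in fetal liver KO and 4.50 in fetal liver WT. In the scanner file labelled WT replicate 1 it was 1.30, below every other array. Apart from that file Kit lay between 4.16 and 4.50 on every array, in cells sorted on its protein. Ly6a, the Sca-1 gene, had levels of 3.60 and 6.04 in bone marrow KO, against 4.75 on WT replicate 2 and 3.36 (value table) or 4.48 (scanner file) for WT replicate 1. KO and WT arrays overlapped, and KO replicate 2 was the highest. In fetal liver Ly6a had 0.77 in KO and 0.31 in WT, far below every bone marrow array.

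**Figure D1:**
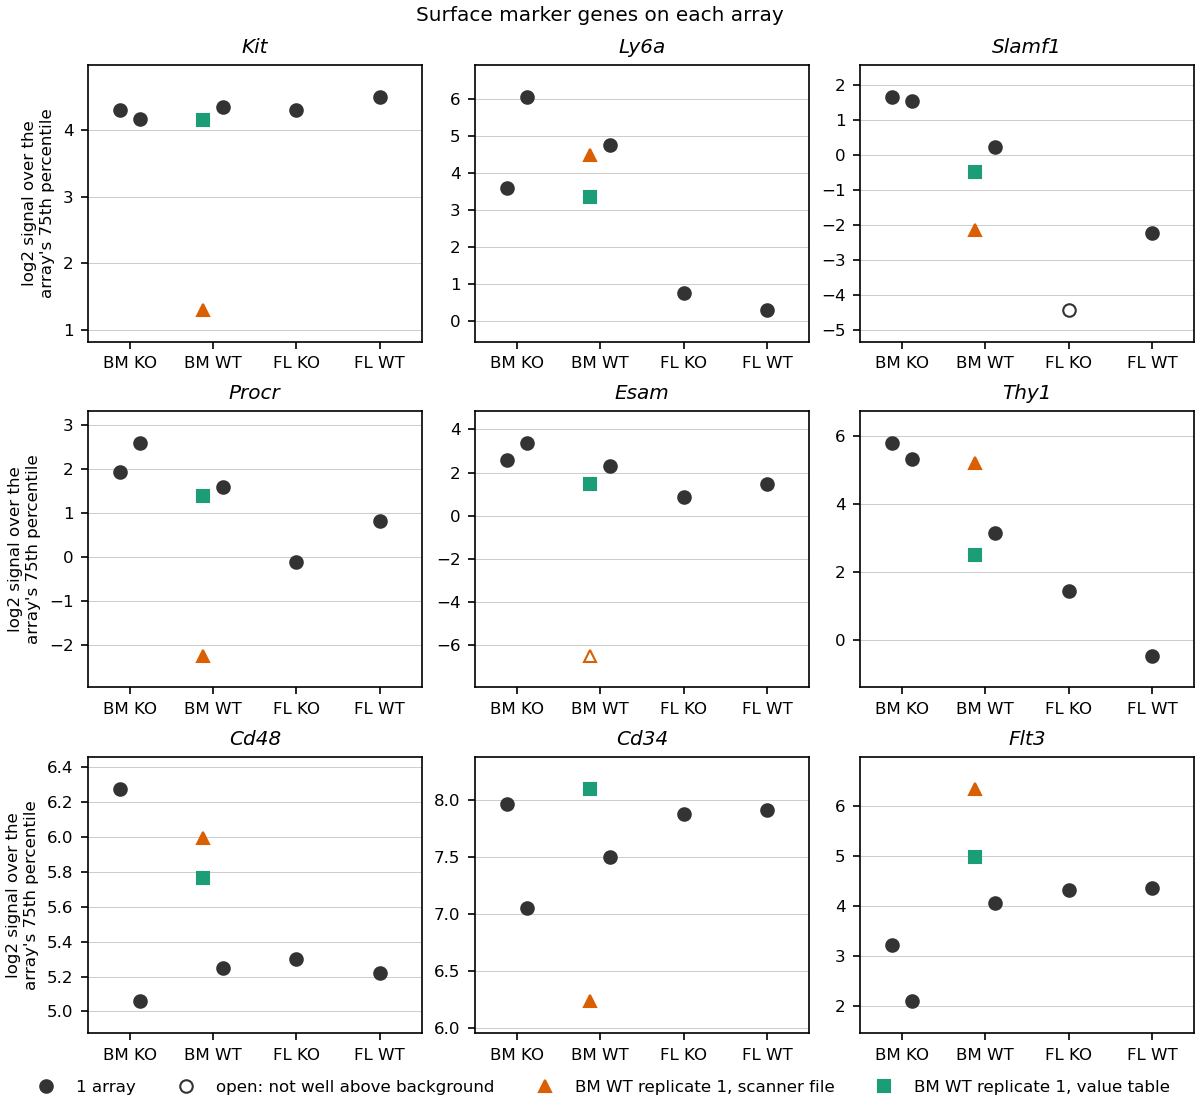
Level of each member gene on each array (y axis, log2 signal over the array's 75th percentile; the y axes differ between genes), with bone marrow (BM) and fetal liver (FL) KO and WT arrays as points. Bone marrow WT replicate 1 is shown from both sources, and open symbols were not well above background; Kit is 1.30 and Esam -6.47 in its scanner file only.

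The levels of the 4 stem cell markers were higher on the bone marrow KO arrays, though none of them passed the limma test on the scanner files. Slamf1 had levels of 1.64 and 1.53 in KO, against 0.22 on WT replicate 2 and -0.49 (value table) or -2.16 (scanner file) for WT replicate 1. Both KO arrays lay above both WT arrays in either source, and the value table gave 1.59 ± 0.08 in KO and -0.14 ± 0.50 in WT (SD, n = 2 each). In fetal liver Slamf1 had -4.42 in KO, not well above background, and -2.23 in WT, below the bone marrow arrays of the value table. Procr had 1.92 and 2.59 in KO, against 1.58 on WT replicate 2 and 1.38 (value table) or -2.24 (scanner file) for WT replicate 1. Here too the KO arrays lay above the WT arrays, and fetal liver had -0.11 in KO and 0.81 in WT. Esam, which joins endothelial and stem cells to their neighbours, had 2.61 and 3.37 in KO, against 2.30 on WT replicate 2 and 1.49 in the value table for WT replicate 1. In the scanner file labelled WT replicate 1 it was at -6.47 and not well above background, so the KO array of that slide was at least 121-fold higher there. In fetal liver Esam had 0.88 in KO and 1.47 in WT. Thy1, whose protein is low on stem cells and high on T cells, had 5.80 and 5.33 in KO, against 3.14 on WT replicate 2 and 2.51 (value table) or 5.23 (scanner file) for WT replicate 1. The groups did not overlap, but the scanner file put WT replicate 1 just under KO replicate 2.

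Of the genes of the progenitors, Flt3 (the receptor of FLT3 ligand) was lower on both KO arrays. Its levels were 3.23 and 2.10 in KO, against 4.07 on WT replicate 2 and 4.97 (value table) or 6.34 (scanner file) for WT replicate 1. The KO arrays lay below the WT arrays in both sources, and the gene's other probe ran the same way, with KO minus WT differences of -1.69 and -1.53 in the value table. In fetal liver Flt3 had 4.33 in KO and 4.37 in WT. Cd48, a ligand of the SLAM family, had 6.27 and 5.06 in KO, against 5.25 on WT replicate 2 and 5.76 (value table) or 5.99 (scanner file) for WT replicate 1. Cd34, a sialomucin, had 7.96 and 7.05 in KO, against 7.50 on WT replicate 2 and 8.09 (value table) or 6.23 (scanner file) for WT replicate 1. For Cd48 and Cd34 the KO and WT arrays overlapped in both sources. In fetal liver Cd48 had 5.30 in KO and 5.22 in WT, and Cd34 had 7.87 in KO and 7.91 in WT. Within each pair of the value table, the 2 probes of Cd34, and those of Cd48, gave pair differences of the same sign.

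In the bone marrow test of KO against WT with limma on the scanner files, none of the 9 members passed an adjusted p under 0.05, nor did any of the 13011 genes tested (0%), and 548 genes had an unadjusted p under 0.05, Slamf1 (2.56 ± 0.84) and Flt3 (-2.54 ± 0.89) among them. With the value table, 1 of 9 members passed, against 0.876% of 12783 genes: Thy1 was 2.75 ± 0.34 higher in KO (SE, adjusted p = 0.0429). With the slide, which holds 1 KO and 1 WT array, as a block, the scanner files gave none, against 0% of genes, and the value table gave 4 of 9, against 7.67%. Those were Thy1 (adjusted p = 0.0107), Slamf1 (1.72 ± 0.24, adjusted p = 0.0229) and Esam (1.09 ± 0.16, adjusted p = 0.0259), higher in KO, and Flt3 (-1.86 ± 0.17, adjusted p = 0.00802), lower in KO. Without WT replicate 1, none passed, against 1.14% of genes, and Thy1 had an adjusted p of 0.0509. Quantile normalization of the value table also gave none, against 0.626%. Without WT replicate 2 the scanner files gave 5 of 9, against 17.8%, with the scanner file labelled WT replicate 1 as the lone WT array. The call therefore rests on which values stand for WT replicate 1, on the block and on the normalization. KO and WT arrays did not overlap for 5 of 9 members in both sources, against 28.5% of genes in the scanner files and 37.2% in the value table. In a sorted bulk sample, fewer cells of a type and less RNA per cell cannot be told apart.

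**Figure D2:**
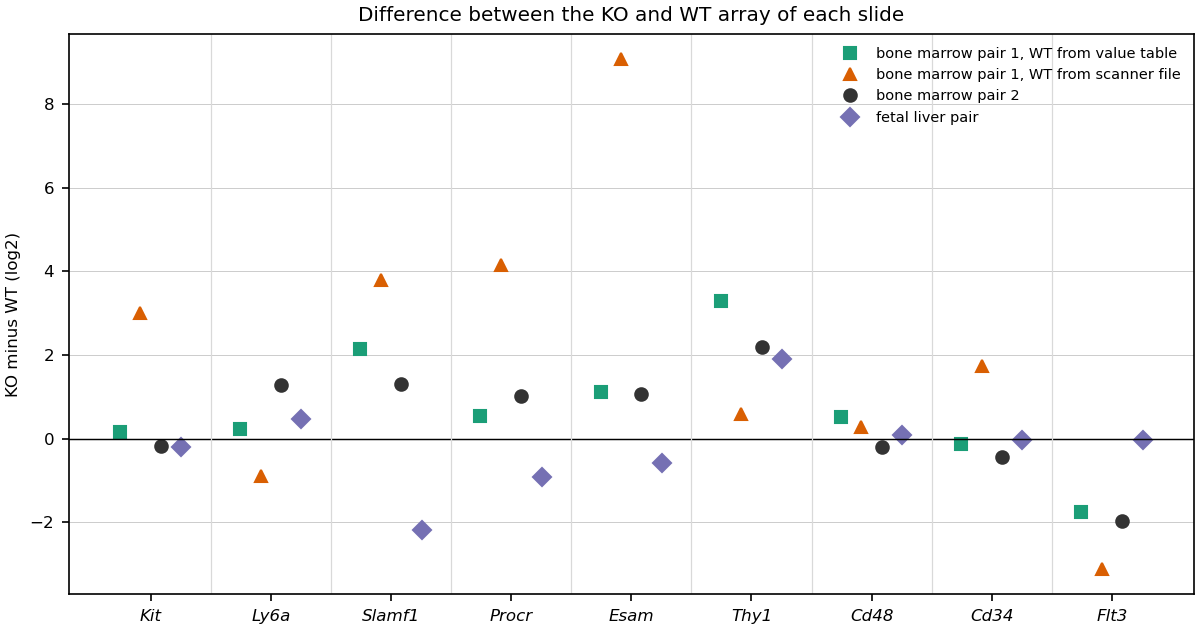
KO minus WT difference (y axis, log2) of each member (x axis) on each slide, with bone marrow pair 1 from both sources. Slamf1, Procr, Esam and Thy1 lie above 0 and Flt3 below 0 in both bone marrow pairs, while fetal liver Slamf1, Procr and Esam lie below 0.

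By pair, the 4 stem cell markers were higher in KO in both bone marrow pairs, with a median difference of 1.63 (value table) or 3.98 (scanner file) in pair 1 and 1.19 in pair 2, against 0.01 and -0.10 over all genes tested in the value table. The balance was read as the difference of 2 genes' KO minus WT differences. Slamf1 gained on Flt3 by 3.88 in pair 1 (value table) and 3.28 in pair 2, and by 6.92 in pair 1 with the scanner file. Slamf1 gained on Cd48 by 1.63 and 1.505 (value table), and on Cd34 by 2.27 and 1.76. The gains on Cd48 and Cd34 rest mainly on Slamf1 itself, which differed by 2.135 and 1.31. Cd48 differed by 0.51 and -0.19, and Cd34 by -0.13 and -0.44, with KO and WT arrays overlapping. Procr gained on Flt3 by 2.29 and 2.98. With the scanner file the pair 1 values were 3.52 for Slamf1 on Cd48, 2.07 for Slamf1 on Cd34 and 7.27 for Procr on Flt3. In the fetal liver pair Procr lost 0.88 on Flt3. No such value is given there for Slamf1, which was not well above background in KO. These values carry no test.

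The fetal liver arrays, 1 per genotype, allow no test. Slamf1 was not well above background in KO, and WT was at least 2.11-fold higher. Thy1 had 1.42 in KO and -0.47 in WT, a difference of 1.89. The other members differed by -0.92 (Procr), -0.59 (Esam), 0.46 (Ly6a), -0.20 (Kit), 0.08 (Cd48), -0.04 (Cd34) and -0.04 (Flt3). More than 2-fold apart were 2 of 9, Slamf1 and Thy1, against 9.75% of 12701 genes. The interaction asked whether the KO minus WT difference differed between bone marrow and fetal liver. No member passed in either source, against 0% of genes in both. With the value table and the slide as a block 1 of 9 passed, against 2.78%: Slamf1 differed by 3.92 ± 0.44 (adjusted p = 0.0328), a size that rests on its fetal liver KO signal, which was not well above background. Its adjusted p was 0.231 without the block. Slamf1 did not keep this call without WT replicate 1 in either source, where 1 bone marrow WT array remains.

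Thy1 was higher in bone marrow than in fetal liver cells in both sources, and Ly6a and Slamf1 passed the test with the value table. Tissue, Cre, slide and age cannot be told apart. In the scanner files 1 of 9 members passed, against 2.1% of 13661 genes: Thy1 was 4.40 ± 0.63 higher in bone marrow (adjusted p = 0.0431). The value table gave calls for 3 of 9 members, against 22.9%, all higher in bone marrow: Thy1 (3.72 ± 0.32), Ly6a (3.90 ± 0.75, adjusted p = 0.023) and Slamf1 (4.05 ± 0.87, adjusted p = 0.0299). The Slamf1 value rests on its fetal liver KO signal, and among KO arrays bone marrow was at least 29.7-fold higher. With the slide as a random block, the scanner files gave Thy1 alone, against 2.45%, and the value table gave Thy1 alone (adjusted p = 0.0223), against 6.11%, with Ly6a at 0.055 and Slamf1 at 0.134. Without WT replicate 1 the same 3 genes passed, against 10.8%. Every bone marrow array lay above both fetal liver arrays for 3 of 9 members in the scanner files (against 12.9%) and for 5 of 9 in the value table (against 17.9%), where Procr and Esam joined them. Procr was 1.52 ± 0.44 higher in the value table (adjusted p = 0.0581). Kit (-0.15 ± 0.18), Cd34 (-0.24 ± 0.33), Cd48 (0.33 ± 0.38) and Flt3 (-0.76 ± 0.56) had 95% intervals that spanned 0 in the value table. Over both tissues together, no member passed for KO against WT, against 0% of genes in the scanner files and 0.17% in the value table.

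**Figure D3:**
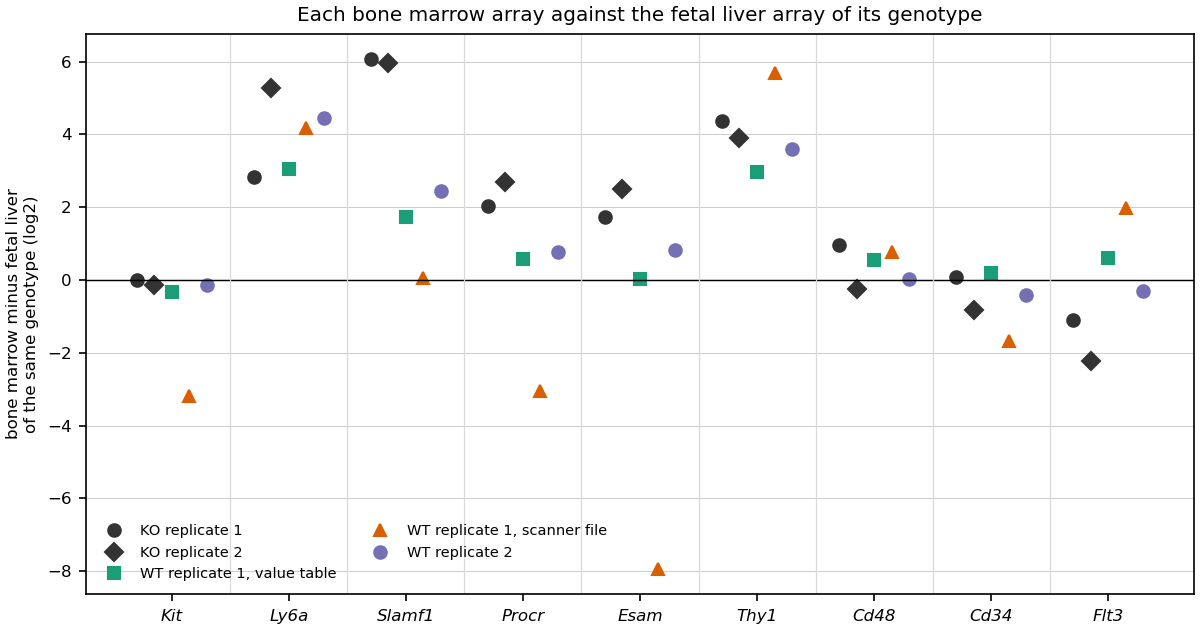
Each bone marrow array minus the fetal liver array of its genotype (y axis, log2) for each member (x axis). Ly6a and Thy1 lie above 0 on every bone marrow array and in both sources, and Kit lies near 0 except in the scanner file labelled WT replicate 1.

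Further genes were read as lists, in the value table unless stated. There 0.876% of all genes passed in bone marrow KO against WT, and 44.2% were higher in KO. Among 22 tested genes of long-term stem cells, 19 were higher and 3 lower in bone marrow KO, with a median of 0.61 against -0.05 over all genes, and none passed; those with the largest differences were Gpr183 (-2.57 ± 0.60) and Mllt3 (1.52 ± 0.26). Among 13 genes of lymphoid-primed progenitors, 10 were lower and 3 higher, with a median of -0.74, and Satb1, a chromatin organiser, passed (-3.94 ± 0.30, adjusted p = 0.0156). The scanner files gave medians of 2.04 and -2.75 for these lists, and no gene of any list passed in them. Among 5 class III receptor kinases and ligands, the family of Kit and Flt3, Pdgfrb was higher (2.32 ± 0.28, adjusted p = 0.0389) and Csf1r lower (-3.003 ± 0.40, adjusted p = 0.049). None passed among 6 SLAM family genes (largest Slamf9, 1.87 ± 1.28, and Slamf8, -1.03 ± 0.46), 9 Ly6 family genes (Ly6k, 3.73 ± 0.55, and Ly6h, 1.49 ± 0.34), 7 genes related to Cd34, Procr or Esam (Jam3, 1.45 ± 0.41, and Jam2, 1.28 ± 0.37), 29 further surface markers (Fcgr3, -2.84 ± 0.47, and Il7r, -2.78 ± 0.75) and 7 lineage antigens (Klrb1c, 1.61 ± 0.26, and Cd5, -0.66 ± 0.40). Gpr183 (-5.85), Il7r (-5.20) and Slamf8 (-5.09) were not well above background on KO replicate 1. Nor was Ly6h (-4.84) for WT replicate 1 in the value table. The sizes given for these genes are therefore not measured.

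**Figure D4:**
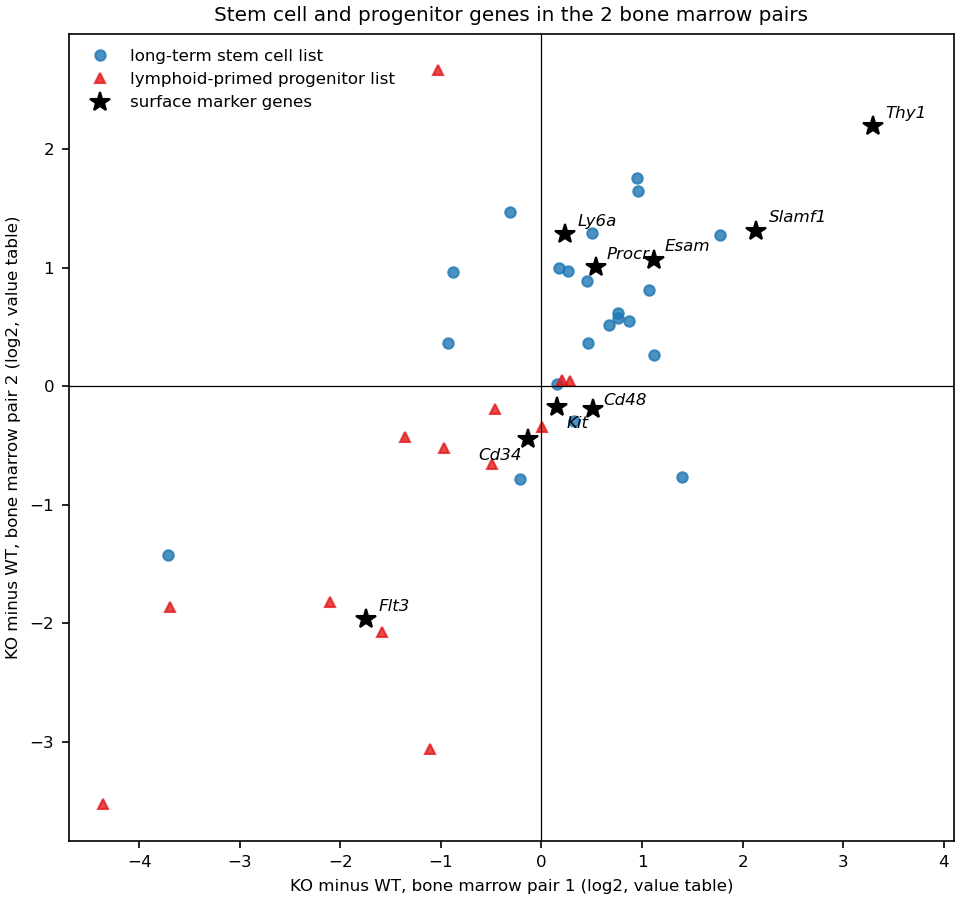
KO minus WT difference (log2, value table) in bone marrow pair 1 (x axis) and pair 2 (y axis) for the members (stars), genes of long-term stem cells (circles) and genes of lymphoid-primed progenitors (triangles). Slamf1, Thy1, Esam, Procr and Ly6a lie in the upper right and Flt3 in the lower left; the pairs share no array.

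Between tissues, list calls are given from the value table, where 22.9% of all genes passed; in the scanner files (2.1% of all genes) Dntt, Cxadr and Prom1 alone passed among the lists named next. With the slide as a random block, 6.11% of all genes passed in the value table. Of the long-term stem cell genes, 16 of 23 passed, 13 higher in bone marrow and 3 lower. These counts include Mecom, Hoxb5 and Rarb, which entered the test through bone marrow arrays alone. In the scanner files none of 24 passed, and with that block 6 of 23 did (Mecom, Pdzk1ip1, Rarb, Selp, Vldlr and Vwf). The higher ones, with differences of 1.08 to 4.95, were Clu, Gata3, Hoxb5, Mecom, Meis1, Mllt3, Pdzk1ip1, Rarb, Selp, Sult1a1, Tek (the receptor gene also called Tie2), Vldlr and Vwf (von Willebrand factor). The lower ones were Cdkn1c (a cell cycle inhibitor, -1.68), Ndn (-1.98) and Gpr183 (-3.58). Gpr183 was not well above background on bone marrow KO replicate 1. Of 14 lymphoid-primed genes, Dntt, which adds bases at rearranging antigen receptor genes, was 8.77 higher. Its fetal liver levels, -3.28 in KO and -3.06 in WT, were not well above background, so this size is not measured. Ikzf1, Rag2, Ccr7 and Ccr9 were lower, with differences of -1.25 to -4.18. Ccr9 was not well above background on bone marrow KO replicate 1. With the block Dntt, Ikzf1 and Ccr7 passed. Cd84 and Slamf8 of the SLAM family were 1.41 to 1.60 higher. Ly6k was 2.06 higher and Csf1r, the receptor of a macrophage growth factor, was lower (-2.72). With the block Cd84 passed, and Slamf8, Ly6k and Csf1r did not. Of the genes related to Cd34, Procr and Esam, F11r, F2r, Jam2 and Podxl were higher and Cxadr and Jam3 lower. With the block Cxadr alone passed. Cxadr was well above background on the fetal liver KO array only (-2.22). It entered the test through that array, so its size is not measured. Of 30 further surface markers, 9 were higher (Adgrg1, Alcam, Cd9, Itga2b, Itga6, Itgb3, Pecam1, Ptprc and Tek) and 3 lower (Cd63, Fcgr3 and Prom1). In the scanner files Prom1 alone passed, and with the block Alcam, Itga2b, Ptprc and Cd63 did. Lineage antigens that passed included Klrb1c, higher in bone marrow, and Cd3e and Cd5, lower. Of these, Cd3e passed with the block. Mecom, Hoxb5, Rarb, Slamf8, Jam2, Podxl and Alcam were also not well above background on either fetal liver array. Like Dntt, these genes entered the test through bone marrow arrays alone, where they were higher, and the counts above include them. The sizes of their differences are not measured either.

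Markers of other cell types were read in the same bone marrow comparison, with calls from the value table. Over all genes there, 0.876% passed and 44.2% were higher in KO. None of these markers passed in the scanner files. Of 12 neutrophil genes all were lower in KO in the value table and Camp, Elane, Mmp8 and S100a9 passed (-2.74 to -4.47). Mmp8, with the largest difference, was not well above background on either KO array (-6.03 and -6.92). It entered the test through the WT arrays alone, where it was higher, so its size is not measured. The 12 genes summed to 432 and 59.6 times the 75th percentile in KO. In WT they summed to 2331 (value table) or 1717 (scanner file) and 1198. Of 11 monocyte and dendritic genes, 9 were lower and Csf1r, Irf8, Ly86 and Mpeg1 passed. Csf1r here, and Pdgfrb among the stromal genes below, are the same calls as given with the class III receptor kinases. Mast cell genes summed to 171 and 136 in KO, against 59.7 or 17.05 and 75.9 in WT, with 7 of 10 tested higher and none passing. This list includes Kit, a member on whose protein the cells were sorted. The sum is therefore not separate from the members. All 11 megakaryocyte genes tested were higher and none passed, with sums of 262 and 295 in KO against 141 or 5.82 and 131 in WT. Of 10 T and NK genes, which bear on Thy1, 7 were lower and Klrd1 passed (-3.41). Its KO levels, -5.75 and -7.06, were not well above background. Klrd1 entered the test through the WT arrays alone, where it was higher, so its size is not measured. The list summed to 147 and 88.8 in KO, against 102 or 290 and 77.6 in WT. Nkg7 alone (7.01 and 6.28 in KO) made most of each sum, except in the scanner file labelled WT replicate 1. B lymphoid genes summed to 15.9 and 64.8 in KO, against 26.2 or 468 and 25.9 in WT, and all 12 were above background in the scanner file labelled WT replicate 1, against 7 in its value table column. Endothelial genes, which bear on Esam, Procr and Cd34, summed to 180 and 115 in KO, against 154 or 160 and 117 in WT. Egfl7 alone (7.32 and 6.59 in KO) made most of each sum. Cdh5, a defining endothelial gene, was not well above background on any bone marrow array except in the scanner file labelled WT replicate 1. Erythroid genes summed to 320 and 87.7 in KO, against 40.6 or 861 and 42.8 in WT, with 10 of 11 higher and none passing. Stromal genes summed to 21.4 and 13.8 in KO, against 12.6 or 13.01 and 9.26 in WT, with Pdgfrb passing. Of 4 hepatocyte genes Afp passed (-2.52), with sums of 44.4 and 33.2 in KO, against 80.0 or 32.4 and 45.8 in WT. Trf alone (5.01 and 4.45 in KO) made most of each hepatocyte sum. Between the 2 fetal liver arrays markers of other cell types differed too, against a median of -0.07 over all genes. B lymphoid genes had 7 lower and 2 higher in KO (median -3.01), and hepatocyte genes 9 lower and 1 higher (-1.47). All 9 stromal genes were higher (0.89). Megakaryocyte genes had 8 lower and 3 higher (-0.30). T and NK genes (5 higher, 5 lower) and endothelial genes (4 higher, 4 lower) had medians of -0.06. The part of these cell types in the members' differences was not tested.

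Over the 6 arrays of the value table, the genes most like a member were, by Pearson correlation among 13499 genes, Trp53inp1, Adcy6 and Fads1 for Ly6a (r = 0.9996, 0.9954 and 0.9947), Ccdc112, Dbt and Slc14a1 for Slamf1 (0.9966, 0.9953 and 0.9935), Tceal1, Exoc6b and Ankrd46 for Procr (0.993, 0.9926 and 0.9916), and Nrgn, Plxna4 and Aplp2 for Esam (0.9918, 0.9915 and 0.9897). Cnbd2, Ccdc69 and Mbp were most like Thy1 (0.9989, 0.9961 and 0.9947), Plppr3, Ccl27a and Emb most like Flt3 (0.9972, 0.9922 and 0.9913), Ppp1r12a, Strn3 and Gpbp1 most like Cd48 (0.989, 0.9839 and 0.9819), Sgo2a, Ccdc59 and Srp72 most like Cd34 (0.9962, 0.9902 and 0.99) and Dapk1, Taf5l and Ptbp2 most like Kit (0.9868, 0.9686 and 0.9664). The arrays share tissue, genotype and slide, and the best of so many genes over 6 arrays lies near 1, so these are descriptions.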

How the data were processed

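Per the labels' protocols, amplified Cy3-labelled RNA was hybridised to 6 Agilent 1-colour arrays. The authors deposited scanner files, written by Agilent Feature Extraction (version 10.7.1.1, from the submitters' processing notes), whose gProcessedSignal is a background-corrected intensity per the file headers, and a value table that holds a linear ratio. Set against the scanner intensities, the deposited ratio column of 5 arrays was the signal over a constant near the 75th percentile, so it runs the same way, with no centring of genes seen. For bone marrow WT replicate 1 scale and direction could not be set that way. The columns' medians were 0.056 and 0.064 (bone marrow KO), 0.057 and 0.063 (bone marrow WT), 0.0709 (fetal liver KO) and 0.0705 (fetal liver WT).

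Control and outlier spots were left out and repeated spots averaged. Values were log2(gProcessedSignal) minus the array's 75th percentile. RefSeq accessions named 26762 of 55681 probes, for 20284 genes, each read from its brightest probe. Genes were tested where well above background on all arrays of at least 1 group; a level of -3.7 (log2), which matched 99.1% of the flags of the KO array of that slide, replaced the flags for the value table column of bone marrow WT replicate 1. Tests used limma 3.58.1 (lmFit, eBayes) in R 4.3.3, with Benjamini-Hochberg adjustment over all genes tested and a threshold of 0.05. The fits were KO against WT over 4 bone marrow arrays, tissue plus genotype over all 6, and their interaction, in which the lone fetal liver arrays are assumed to vary like the others.

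Each slide holds 1 KO and 1 WT array with the same replicate number and was scanned on its own, so slide and replicate pair are the same. Deviations of same-numbered bone marrow arrays correlated at 0.0457 (scanner files) and 0.561 (value table). Each comparison was fitted under 18 settings: 1 as planned, 11 or 12 alternatives listed at the start and 5 or 6 added after seeing the data. The number of arrays limits the precision. The test was checked on simulated data with the fit's own moderated spread; an earlier simulation with each gene's raw spread recovered the differences but called none of the changed genes.

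The members and the gene lists were chosen with earlier results of these data known. All members are named, Trim28 as the targeted gene, and from each list the genes that passed in bone marrow or between tissues, or else the 2 with the largest bone marrow difference. Promoters come from RefSeq. A gene that passed between tissues is not reported here.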

Additional observations from a re-analysis of the deposited data

Results flagged for a closer look

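Slamf1, Procr and Esam had a KO minus WT difference below 0 in fetal liver and above 0 in both bone marrow pairs. The bone marrow difference exceeded that of fetal liver by 4.75 for Slamf1, 3.502 for Procr and 5.66 for Esam in the scanner files. The value for Slamf1 rests on its fetal liver KO signal and that for Esam on its signal in the scanner file of bone marrow WT replicate 1, neither well above background, so their sizes are not measured. The limma interaction test did not pass for any of them there (adjusted p = 1 each). In the value table the bone marrow difference exceeded that of fetal liver by 3.92, 1.69 and 1.69, and none passed without the block. The 3.92 of Slamf1 also rests on its fetal liver KO signal. Fetal liver has 1 array per genotype, and tissue, Cre and slide change together. Its KO and WT arrays also differed in B lymphoid, hepatocyte and stromal markers, and the part of those cells was not tested.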

How the results depend on the processing

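In bone marrow, the number of members passing was 0 in 12 of 18 settings and at most 5. It was 1 with the value table and 4 with the value table and the replicate block, and 0 to 5 when each array was left out of the scanner files. With the value table it was 1 without bone marrow KO replicate 1, 3 without WT replicate 2 and 1 without KO replicate 2, all added after seeing the data. Between tissues it was 1 in the scanner files, 3 with the value table, 2 with genes above background on every array, and 0 to 3 when each array was left out. With the value table it was 3 without bone marrow WT replicate 1, 2 without KO replicate 1, 2 without KO replicate 2 and 3 with quantile normalization. Over both tissues no member passed for KO against WT in any of 18 settings. For the interaction it was 1 with the value table and the replicate block, 0 to 5 when each array was left out, and, from the value table, 1 without bone marrow WT replicate 2 and 1 without KO replicate 2. In fetal liver, 1 member was over 2-fold apart with normexp. All genes passing in bone marrow numbered 0 in the scanner files, 112 in the value table and 981 with its replicate block. As a fixed term, the replicate block took no call of a member away in the KO against WT comparisons or the interaction. As a random block, the slide left 1 of the 3 members passing between tissues in the value table. Over both tissues the fixed block left 0 genes of the 23 passing in the value table. Of the members' values under alternatives, 521 kept their direction and side of the threshold, 81 changed sign, 34 passed where the scanner files did not, 3 no longer passed and 2 moved. The cause was not tested. With 2 arrays per group, or 1, precision is limited by their number, and Slamf1 in fetal liver KO by background.

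For bone marrow KO minus WT, the members that changed sign under some setting were, with their scanner file values, Kit 1.41, Ly6a 0.20, Cd48 0.045, Cd34 0.64. Kit was -0.013, Cd34 -0.29 with the value table. Kit was -0.013, Cd34 -0.29 with the value table and the replicate block. Kit was -0.11 with the value table without bone marrow WT replicate 1. Kit was -0.082, Cd48 -0.45, Cd34 -0.74 with the value table without bone marrow KO replicate 1. Ly6a was -0.46 with the value table without bone marrow KO replicate 2. Cd48 was -0.10, Cd34 -0.59 with the value table without bone marrow WT replicate 2. Cd34 was -0.086 with the quantile-normalized value table. Leaving out each bone marrow array in turn from the scanner files gave Kit -0.11 to 2.94, Ly6a -1.02 to 1.42, Cd48 -0.56 to 0.65.

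For bone marrow minus fetal liver, the members that changed sign under some setting were, with their scanner file values, Kit -0.87, Esam -0.72, Cd34 -0.70, Flt3 -0.42. Kit was 0.19, Esam 1.37, Cd34 0.37 with the quantile-normalized value table. Esam was 1.27 with the value table. Esam was 0.37 with normexp. Esam was 1.27 with the value table and the slide as a random block. Esam was 1.57 with the value table without bone marrow WT replicate 1. Esam was 1.31 with the value table without bone marrow KO replicate 1. Esam was 1.22 with the value table without bone marrow WT replicate 2. Esam was 0.99 with the value table without bone marrow KO replicate 2. Leaving out each bone marrow array in turn from the scanner files gave Esam -2.19 to 1.57, Flt3 -1.08 to 0.0024.

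For KO minus WT over both tissues, the members that changed sign under some setting were, with their scanner file values, Kit 0.88, Ly6a 0.29, Slamf1 0.97, Procr 1.42, Cd48 0.057, Cd34 0.41. Kit was -0.074, Cd34 -0.21 with the value table. Kit was -0.074, Cd34 -0.21 with the value table and the replicate block. Kit was -0.15, Slamf1 -0.16, Procr -0.0087, Cd34 -0.012 with the value table without bone marrow WT replicate 1. Kit was -0.13, Cd48 -0.22, Cd34 -0.44 with the value table without bone marrow KO replicate 1. Kit was -0.037, Cd48 -0.023, Cd34 -0.35 with the value table without bone marrow WT replicate 2. Kit was -0.052, Ly6a -0.065, Procr -0.14 with the value table without bone marrow KO replicate 2. Kit was -0.012, Cd34 -0.029 with the quantile-normalized value table. Leaving out each bone marrow array in turn from the scanner files gave Kit -0.15 to 1.60, Ly6a -0.39 to 1.01, Slamf1 -0.16 to 1.20, Procr -0.0093 to 2.17, Cd48 -0.29 to 0.41, Cd34 -0.012 to 0.71.

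For the interaction, the members that changed sign under some setting were, with their scanner file values, Ly6a -0.26, Thy1 -0.51, Cd48 -0.035, Cd34 0.69. Ly6a was 0.30, Thy1 0.85, Cd48 0.079, Cd34 -0.24 with the value table. Ly6a was 0.30, Thy1 0.85, Cd48 0.079, Cd34 -0.24 with the value table and the replicate block. Ly6a was 1.52, Thy1 0.62, Cd34 -0.70 with the value table without bone marrow KO replicate 1. Ly6a was 1.00, Thy1 1.17, Cd34 -0.54 with the value table without bone marrow WT replicate 2. Ly6a was 0.42, Thy1 1.02, Cd48 0.14, Cd34 -0.17 with the quantile-normalized value table. Thy1 was 0.54, Cd48 0.34 with the value table without bone marrow WT replicate 1. Thy1 was 1.09, Cd48 0.69 with the value table without bone marrow KO replicate 2. Cd48 was 0.052 with normexp. Leaving out each bone marrow array in turn from the scanner files gave Ly6a -1.48 to 0.96, Thy1 -1.55 to 0.54, Cd48 -0.64 to 0.57.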
